A study of Mus musculus with 4 samples.

Results

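The transcripts of 9 transcription factor genes, Eomes, Neurog2, Insm1, Neurod1, Neurod2, Prox1, Myt1, Myt1l and St18, were followed through adult neurogenesis in the mouse dentate gyrus. They are a list of proneural and granule cell identity factors, chosen by name, and make up 9 of the 45706 features in the count files. All nuclei came from young-adult mice that carry the CAGfloxStop-Sun1/sfGFP reporter and a CreERT2 driver allele and were given tamoxifen, so that CreERT2 removes a stop cassette and marks the nuclear envelope of cells in which the driver is active, and of their progeny, with green fluorescent protein. Marked nuclei were sorted 1, 2, 4 or 8 weeks after tamoxifen, and these libraries are called w1, w2, w4 and w8. Each week was 1 pool of left dentate gyri from 4 male and female mice, and no library came from uninduced animals. Weeks were therefore not compared by a test, and what is marked depends on where the driver allele was active at induction.

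In the adult dentate gyrus, radial glia-like stem cells (RGL) give rise to cycling neural progenitor cells (NPC), which leave the cell cycle as neuroblasts (NB1 and NB2) and then pass through immature (GCimm1 and GCimm2), young (GCyoung) and mature (GCmat1 and GCmat2) granule cells. Proneural basic helix-loop-helix (bHLH) factors bind E-boxes, short DNA motifs, as dimers with E proteins and start the neuronal programme, the T-box factor Eomes marks intermediate progenitors, and the homeodomain factor Prox1 is required for granule cell identity. The Myt1 family (Myt1, Myt1l and St18) are zinc finger factors, of which Myt1l is known to repress non-neuronal genes in neurons.

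The authors assigned 14367 of 17046 barcodes to 13 clusters, and these hold 91942382 unique molecular identifiers (UMIs), 13227971 to 28595331 per library. Levels are given as UMIs per 1000000 UMIs of the same nuclei (CPM), for clusters with at least 10 nuclei of a library. The cluster names were checked against markers: Top2a was at 450 CPM in NPC and at most 16.3 elsewhere, Hopx at 309 CPM in RGL, Aqp4 at 116 CPM in astrocytes (Astro), Pdgfra at 850 CPM in oligodendrocyte precursors (OPC) and Mog at 1999 CPM in oligodendrocytes (Oligo). The labels name the sorted cells adult-born granule cells, but clusters of astrocytes, pericytes (Peri), OPC and Oligo were among them. Pairs of libraries shared 1 to 6 barcodes among the kept nuclei. The intervals given here cover counting error only.

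Changes between clusters were tested on UMI counts summed per library and cluster with edgeR's quasi-likelihood test (cluster and library as terms, 29 sums, 13513 genes), and a gene was called if it changed 1.5-fold or more with a p, adjusted by Benjamini-Hochberg over all genes, no larger than 0.05. The authors drew the clusters and the pseudo-time from the same expression values, so these p-values describe how far clusters stand apart and are not independent evidence of it. Of the 9 genes, 8 were tested. Neurod1 had no UMI in any nucleus.

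**Figure D1:**
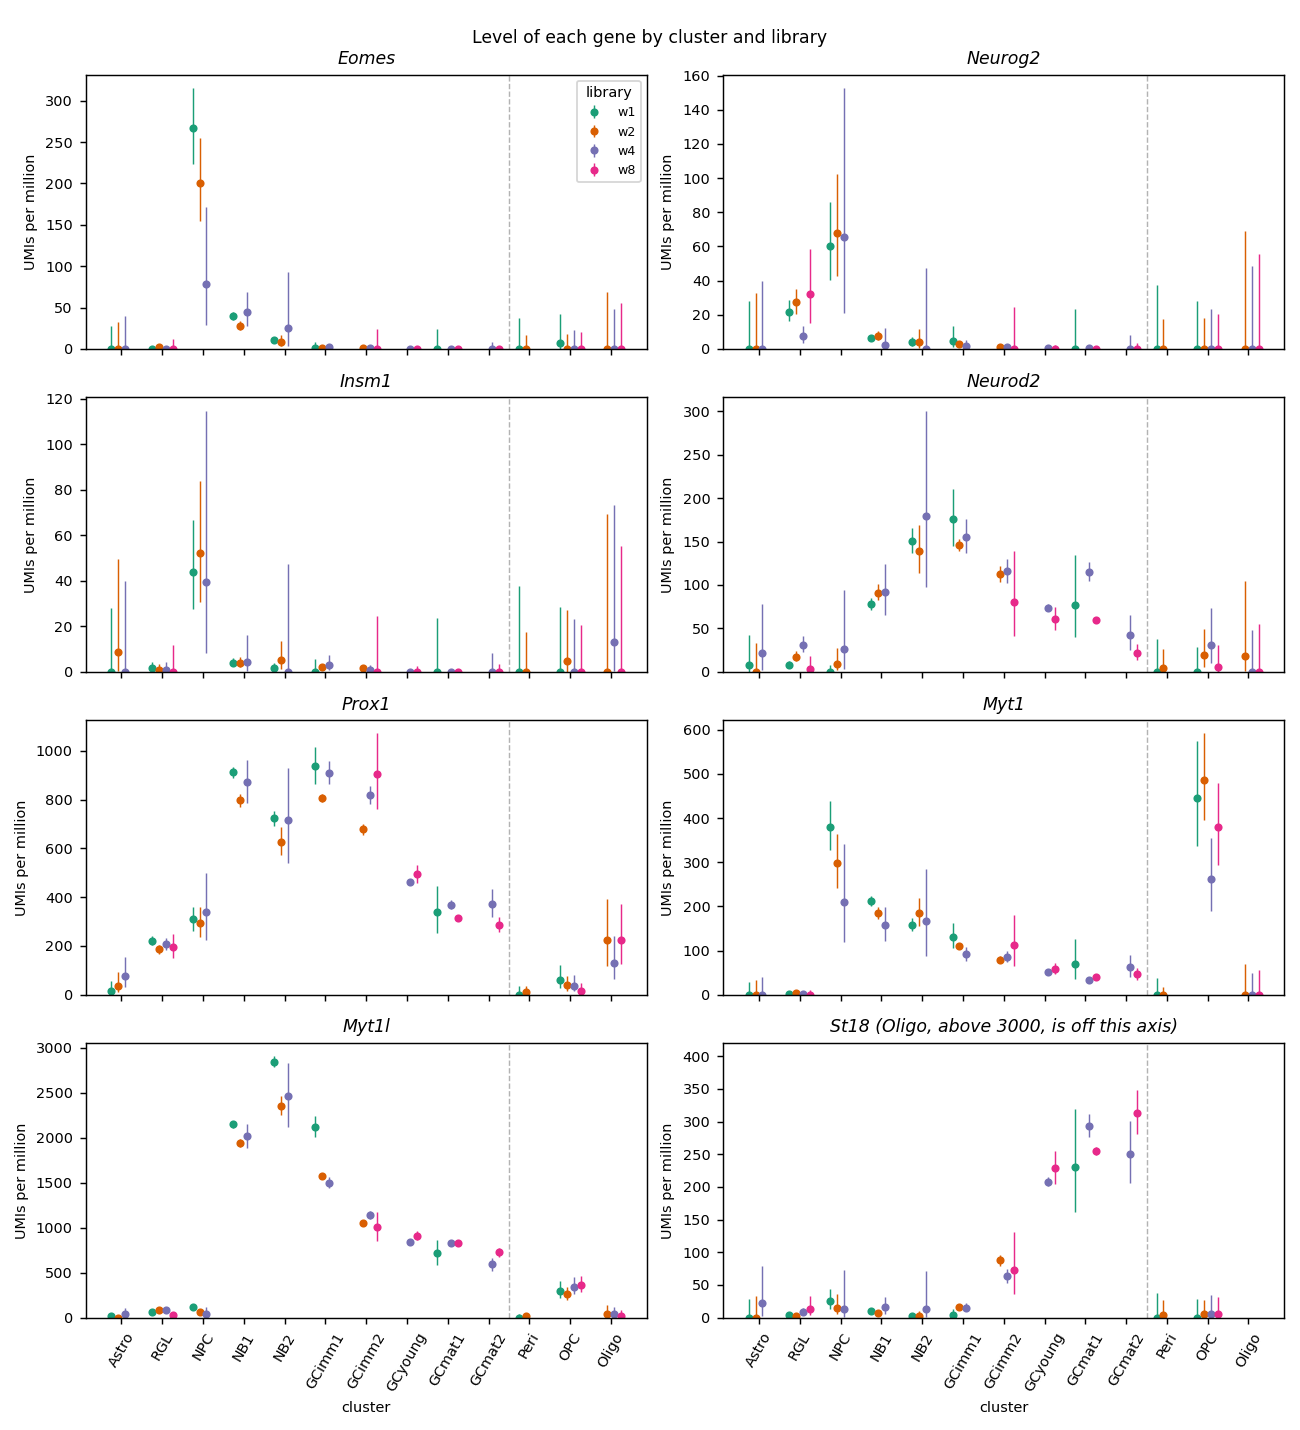
Level of 8 genes (vertical axes, CPM) in each cluster (horizontal axes) and library (colours). Points are single libraries with at least 10 nuclei of the cluster, bars are exact 95% Poisson intervals, and clusters right of the dashed line lie off the granule cell trajectory. Eomes, Neurog2 and Insm1 were highest in NPC, Prox1, Neurod2 and Myt1l rose in NB1, and St18 rose from GCimm2 on, with its Oligo values (3713 to 5228) off the axis.

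The genes differ widely in structure, which matters for a count of nuclear RNA over exons and introns. On GRCm38, Eomes (ENSMUSG00000032446) lies at chr9:118478212-118486132, Neurog2 (ENSMUSG00000027967) at chr3:127633135-127635631 and Insm1 (ENSMUSG00000068154), which has 1 exon and no intron, at chr2:146221921-146225020, all on the plus strand. Neurod1 (ENSMUSG00000034701) lies at chr2:79452521-79456751, Neurod2 (ENSMUSG00000038255) at chr11:98325415-98329648 and Prox1 (ENSMUSG00000010175) at chr1:190118035-190170714, all on the minus strand. Myt1 (ENSMUSG00000010505) lies at chr2:181763332-181827797, Myt1l (ENSMUSG00000061911) at chr12:29528384-29923213 and St18 (ENSMUSG00000033740) at chr1:6487231-6860940, all on the plus strand. Gene length runs from 2497 bp for Neurog2 to 394830 bp for Myt1l, and exons make up 89.2% of Neurog2 but 3.55% of Myt1l and 1.73% of St18. Levels were therefore compared between clusters for each gene and never between genes.

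Prox1, Neurod2 and Myt1l were the 3 members called higher in NB1 than in NPC, and the 250 bases before a RefSeq transcription start of each (GRCm38.p6) are printed here to show the E-boxes next to them, with those of Eomes, which was called lower at the same step, beside them. Capitals mark E-boxes, CANNTG on either strand. The windows are chr1:190170828-190171077 (minus strand) for Prox1, chr11:98329646-98329895 (minus) for Neurod2, chr12:29528134-29528383 (plus) for Myt1l and chr9:118477939-118478188 (plus) for Eomes.
Prox1: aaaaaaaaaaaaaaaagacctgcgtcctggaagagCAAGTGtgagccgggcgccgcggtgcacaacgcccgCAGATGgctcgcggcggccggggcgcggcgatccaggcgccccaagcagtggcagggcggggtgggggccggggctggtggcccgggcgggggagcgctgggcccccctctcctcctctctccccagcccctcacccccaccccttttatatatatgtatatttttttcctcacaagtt
Neurod2: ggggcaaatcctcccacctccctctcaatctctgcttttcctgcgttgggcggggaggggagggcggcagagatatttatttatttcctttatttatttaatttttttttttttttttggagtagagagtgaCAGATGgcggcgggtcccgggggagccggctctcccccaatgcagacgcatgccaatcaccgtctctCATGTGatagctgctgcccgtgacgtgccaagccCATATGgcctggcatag
Myt1l: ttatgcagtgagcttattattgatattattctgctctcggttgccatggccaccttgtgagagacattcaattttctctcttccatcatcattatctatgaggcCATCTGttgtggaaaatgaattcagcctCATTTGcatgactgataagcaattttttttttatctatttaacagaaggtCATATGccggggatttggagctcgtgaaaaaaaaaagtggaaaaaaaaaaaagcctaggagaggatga
Eomes: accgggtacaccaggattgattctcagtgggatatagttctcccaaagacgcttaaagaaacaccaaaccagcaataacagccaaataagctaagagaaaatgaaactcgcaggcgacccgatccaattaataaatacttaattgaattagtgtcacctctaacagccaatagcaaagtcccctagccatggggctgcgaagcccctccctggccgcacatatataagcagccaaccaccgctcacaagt
The windows of Neurod2 and Myt1l held 3 E-boxes each, that of Prox1 held 2 and that of Eomes 0. Each of the first 3 held 1 of the form CAGATG or its complement CATCTG, which is counted among the E-boxes. Over 32851 windows of the same length before RefSeq starts, 66.2% held an E-box and 14.4% held CAGATG or CATCTG. RefSeq listed starts for 7 of the 9 genes. A second Prox1 start had 0 E-boxes, and of 5 Myt1l starts 3 had CAGATG or CATCTG. The single start of Neurog2 held none and that of Neurod1 held 1 E-box. AAGTTT or AAACTT, the core motif bound by Myt1 factors, stood in 12.8% of all windows, in none of the 4 printed and at 2 of 3 Myt1 starts, which held 0, 2 and 1 E-boxes. These matches describe letters and say nothing of binding.

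By cluster, Eomes was highest in NPC and fell stepwise after it. Along pseudo-time, Eomes stood about as high in a bin past most NPC nuclei, as given below. In NPC it stood at 267 CPM in w1, 200 CPM in w2 and 78.6 CPM in w4, the last from 6 UMIs. In RGL it was at 0 in w1, w4 and w8 and at 2.35 CPM in w2. The 2 sets of values did not overlap, and the log2 change from RGL to NPC was 7.55 (SE 0.45, edgeR adjusted p = 3.4e-18). In nuclei, a UMI of Eomes was found in 40.8% of 211 NPC (95% Clopper-Pearson interval 34.1 to 47.7%), in 0 of 67 astrocytes, which allows a share of up to 4.48%, and in 0 of 3356 GCmat1 nuclei, which allows up to 0.0894%. The median depth was 4278 UMIs in NPC, 4670 in astrocytes and 8138 in GCmat1, so shallower sampling did not accompany the zeros.

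From NPC to NB1, Eomes fell by 2.33 on the log2 scale (SE 0.26, adjusted p = 6.7e-10, edgeR) to 39.8, 27.6 and 44.8 CPM in w1, w2 and w4. The ratio of NB1 to NPC was 0.149 in w1 (95% interval 0.120 to 0.185) and 0.138 in w2 (0.101 to 0.190), while in w4, with 22 NPC nuclei, it was 0.570 with an interval of 0.221 to 1.73 that includes 1. Eomes fell again from NB1 to NB2 (log2 change -1.84, SE 0.36, adjusted p = 0.00059, against 0.46 without w1) and from NB1 to GCimm1 (-4.83, SE 0.43, adjusted p = 2.3e-12). Of all neighbours in its order of levels among trajectory clusters, NPC, NB1 and NB2 each differed from the next, and none of the lower ones did.

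Neurog2, a bHLH factor of the proneural type, was already found in RGL. Its level there was 21.7, 27.2, 7.36 and 31.9 CPM in w1, w2, w4 and w8, from 50, 58, 10 and 10 UMIs, and it was at 0 UMIs in astrocytes, pericytes, OPC and oligodendrocytes. In NPC it was 60.1, 67.8 and 65.5 CPM in w1, w2 and w4, above every RGL library. The step from RGL to NPC was a log2 change of 1.27 (SE 0.34, adjusted p = 0.0025, edgeR), and without w1 the adjusted p was 0.052. From astrocytes to RGL the level was at least 2.34-fold higher, taking 3 UMIs over all astrocytes as the limit of their 0 count. A UMI of Neurog2 was found in 7.50% of RGL nuclei (interval 6.17 to 9.01%), against 0 of 131 OPC nuclei, which allows up to 2.29%, at median depths of 4091 and 4750 UMIs.

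Neurog2 fell by 3.09 on the log2 scale from NPC to NB1 (SE 0.37, adjusted p = 1.3e-09), to 6.13, 7.58 and 2.24 CPM in w1, w2 and w4. The order of its levels was NPC, RGL, NB1, and each of these differed from the next by the edgeR test (adjusted p = 0.0025 and 2.7e-06). From NB1 on, no cluster differed from the next lower one.

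Insm1, a zinc finger factor known from progenitors that leave the cell cycle, was high in NPC alone: in its order of levels, only NPC differed from the next cluster. It stood at 44.1 CPM in w1, 52.4 CPM in w2 and 39.3 CPM in w4 in NPC, from 22, 17 and 3 UMIs, and at most 1.74 CPM in any library of RGL. The log2 changes were 4.94 from RGL to NPC (SE 0.54, adjusted p = 2.3e-10, edgeR) and -3.25 from NPC to NB1 (SE 0.43, adjusted p = 1.9e-08). Insm1 was found in 14.7% of NPC nuclei (interval 10.2 to 20.2%) and in 1.49% of astrocytes, where 1 nucleus had 1 UMI.

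Neurod1, the bHLH factor that acts after Neurog2 in many neuronal lineages, could not be measured. It had 0 UMIs in 14367 nuclei, which allows a level of up to 0.0326 CPM. On GRCm38 with GENCODE M21, 100% of Neurod1 lies inside Cerkl on the same strand (chr2:79330543-79456785). Of 309 protein-coding genes wholly inside another gene on the same strand, 303 (98.1%, Clopper-Pearson interval 95.8 to 99.3%) had 0 UMIs, against 16.9% of 21210 other protein-coding genes. How the counting treated such genes was not tested, so the 0 is not read as absence of the transcript. Cerkl itself was at 5.25 CPM in RGL, 14.2 CPM in NPC, 88.9 CPM in NB1 and 33.3 CPM in GCmat1. Whether any of its UMIs came from Neurod1 was not tested, and its levels are not read as those of Neurod1.

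Across the step from RGL to NPC, 6 of the 8 tested members were called, 5 higher and 1 lower, where 29.5% of all genes tested were called, 13.7% higher and 15.9% lower (1850 and 2142 genes, against 1828 and 1730 with DESeq2). Without w1, 3 members and 2730 of 13519 genes were called, against 3992 of 13513 genes with it. The median log2 change was 1.53 over the members and -0.05 over all genes. At the step from NPC to NB1 it was 6 again, 3 higher and 3 lower, where 29.3% of all genes were called, 14.7% higher and 14.6% lower (1986 and 1978 genes, against 1413 and 2112 with DESeq2), and the medians were -0.70 and 0.06. From astrocytes to RGL, 3 were called, Prox1, Myt1l and Neurog2, all higher, where 9.58% of all genes were called, 4.77% higher and 4.82% lower. That split, 644 genes higher and 651 lower, was 455 and 854 with RLE factors and 318 and 890 with DESeq2. Of these, Prox1 was called under each alternative, and Myt1l and Neurog2 were lost without w1 (adjusted p = 0.10 and 0.18, edgeR), without w2 (0.37 and 0.19) and with DESeq2 (0.056 and 0.065), and Neurog2 also after thinning to 2000 UMIs (0.12).

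**Figure D2:**
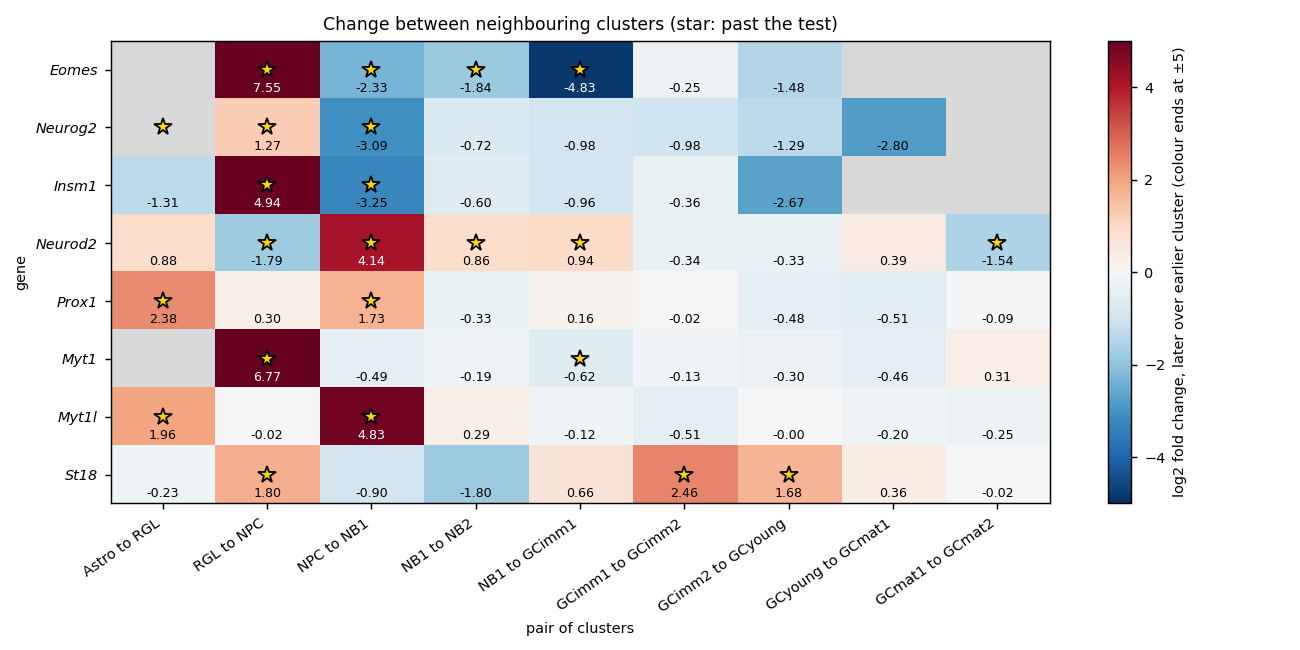
Log2 change of 8 genes (vertical axis) between pairs of clusters (horizontal axis), in red where the second cluster is higher and in blue where it is lower. Stars mark calls, grey marks pairs in which a cluster had 0 UMIs, and the colour scale ends at 5. The stars gather at RGL to NPC and NPC to NB1, and St18 alone has stars in both later steps from GCimm1 to GCyoung.

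Prox1, the homeodomain factor that specifies granule cells, was present in RGL, above astrocytes, and rose again from NPC to NB1. In RGL it stood at 221, 187, 208 and 194 CPM in w1, w2, w4 and w8, against 15.3, 35.6 and 75.9 CPM in astrocytes of w1, w2 and w4. These values did not overlap, and the log2 change from astrocytes was 2.38 (SE 0.37, adjusted p = 1.9e-06, edgeR). The median gene moved by 0.27 in that comparison, and relative to it Prox1 changed by 2.10 and Myt1l by 1.68.

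In NPC, Prox1 stood at 309, 293 and 341 CPM in w1, w2 and w4. The ratio to RGL of the same library was 1.39 in w1 (95% interval 1.16 to 1.67), 1.57 in w2 (1.24 to 1.97) and 1.64 in w4 (1.05 to 2.46). The edgeR test, which scales libraries by TMM factors, gave a log2 change of 0.30 (SE 0.20, adjusted p = 0.27), so the step was not called. In NB1 the level was 912, 797 and 872 CPM, above every NPC library, with a log2 change of 1.73 (SE 0.20, adjusted p = 3.0e-10).

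Prox1 then stayed high through GCimm1 (937, 806 and 909 CPM in w1, w2 and w4) and GCimm2 (678, 820 and 906 CPM in w2, w4 and w8). It stood lower in GCyoung, at 461 CPM in w4 and 495 CPM in w8, ratios of 0.562 (0.534 to 0.591) and 0.546 (0.454 to 0.661) to GCimm2. The log2 change was -0.48 (SE 0.20, adjusted p = 0.083, edgeR) and was not called. It was called by edgeR with RLE factors (-0.62, adjusted p = 0.0034), by DESeq2 (-0.61, adjusted p = 0.00031) and by edgeR in nuclei thinned to 2000 UMIs (-0.61, adjusted p = 0.019). A UMI of Prox1 was found in 51.0% of RGL nuclei and 97.8% of GCimm2 nuclei, against 16.0% of OPC nuclei. Oligodendrocytes stood near RGL in level, at 200 CPM over all nuclei against 205 CPM. Of Prox1, 2.63% is overlapped by genes on the other strand, among them Prox1os, which stood at 63.6 CPM in RGL, 188 CPM in NB1 and 85.5 CPM in GCmat1.

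Neurod2, a bHLH factor of differentiating neurons, was called higher at 3 comparisons, NPC to NB1, NB1 to NB2 and NB1 to GCimm1. It had 0 UMIs in NPC of w1, 3 UMIs in w2 and 2 UMIs in w4, and stood at 77.6, 91.2 and 91.9 CPM in NB1 of the same libraries. The log2 change was 4.14 (SE 0.50, adjusted p = 1.4e-09, edgeR). From NB1 to NB2 it was 0.86 (SE 0.19, adjusted p = 0.0031), to 151, 139 and 179 CPM, and in this comparison 2 members were called, Neurod2 higher and Eomes lower, where 2.94% of all genes were called, 1.81% higher and 1.13% lower (244 and 153 genes, against 141 and 53 with DESeq2). With DESeq2 neither was called, and likewise without w1, the library that holds 560 of the 726 NB2 nuclei.

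In RGL, Neurod2 stood at 8.26, 17.4, 30.9 and 3.19 CPM in w1, w2, w4 and w8. A UMI was found in 6.49% of RGL nuclei, in 7.63% of OPC nuclei and in 4.48% of astrocytes, at median depths of 4091, 4750 and 4670 UMIs, so the RGL share was no higher than that of OPC and is not read as expression. The lower level in NPC was called (log2 change -1.79, SE 0.68, adjusted p = 0.038, edgeR), on 5 UMIs in NPC. That call was lost with DESeq2, without the library term, after thinning and without w1, w2 or w4, with adjusted p between 0.051 and 0.29.

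Later, Neurod2 stood at 73.8 CPM in w4 and 60.6 CPM in w8 in GCyoung, and at 76.8, 115 and 59.5 CPM in GCmat1 of w1, w4 and w8. The w1 values of GCmat1, for this gene and those below, come from 17 nuclei. In w4 the ratio of GCmat1 to GCyoung was 1.56 (1.39 to 1.74) and in w8 it was 0.981 (0.790 to 1.23). In GCmat2 it was at 42.0 CPM in w4 and 21.7 CPM in w8, ratios of 0.366 and 0.364 to GCmat1. The step from GCmat1 to GCmat2 was a log2 change of -1.54 (SE 0.30, adjusted p = 0.00017, edgeR), the 1 member called there, where 7.3% of all genes were called, 3.01% higher and 4.28% lower, and the median gene moved by -0.14. The balance of 407 genes higher and 579 lower turned to 503 and 482 with RLE factors and 376 and 303 with DESeq2.

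Among the clusters of the trajectory, Myt1 was highest in NPC, an earlier cluster than for the other 2 members of its family. Along pseudo-time, Myt1 was highest in a bin past most NPC nuclei, as given below. It had 0.870, 4.23, 2.21 and 0 CPM in RGL of w1, w2, w4 and w8 and 381, 299 and 210 CPM in NPC of w1, w2 and w4. The log2 change of 6.77 (SE 0.28) had the smallest adjusted p of the members at this step, 6.1e-25 (edgeR). A UMI was found in 65.4% of NPC nuclei (interval 58.6 to 71.8%) and in 0 of 67 astrocytes.

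Myt1 was lower in later clusters, at 211, 185 and 157 CPM in NB1 of w1, w2 and w4, at 131, 111 and 91.1 CPM in GCimm1, at 51.7 and 58.6 CPM in GCyoung of w4 and w8 and at 70.4, 34.4 and 40.5 CPM in GCmat1 of w1, w4 and w8. No step between neighbours in its order of levels from NPC to GCmat1 was called. The change from NPC to NB1 was -0.49 (SE 0.17, adjusted p = 0.023, edgeR), short of the 1.5-fold limit, and was called with RLE factors (-0.61, adjusted p = 0.0030) and with DESeq2 (-0.59, adjusted p = 0.044). From NB1 to GCimm1 the log2 change of -0.62 (SE 0.15, adjusted p = 0.0022) was called, 1 of 3 members there with Neurod2 (higher) and Eomes (lower), where 12.5% of all genes were called, 7.76% higher and 4.75% lower. For Myt1 that call was lost with DESeq2 (adjusted p = 0.058) and without w2 (adjusted p = 0.073, edgeR).

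Myt1l followed Myt1 by 1 cluster. It stood at 114, 64.7 and 39.3 CPM in NPC of w1, w2 and w4, and at 2149, 1938 and 2017 CPM in NB1. The log2 change was 4.83 (SE 0.31, adjusted p = 1.2e-18, edgeR), while from RGL to NPC it was -0.02 (SE 0.32, adjusted p = 0.97). Its RGL level of 60.5, 79.9, 86.9 and 31.9 CPM came with a UMI in 19.8% of nuclei, against 7.46% of astrocytes and 13.3% of oligodendrocytes, the last an interval of 5.05 to 26.8%.

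The highest level of Myt1l was in NB2, at 2843, 2357 and 2460 CPM in w1, w2 and w4, and all 726 NB2 nuclei had a UMI. It was 2123, 1571 and 1498 CPM in GCimm1, 1050.1, 1143 and 1006 CPM in GCimm2 of w2, w4 and w8, and 717 to 828 CPM in GCmat1. No step between neighbours of this order was called from NB2 to GCmat2, and GCmat2 and NPC differed (log2 difference 3.75, adjusted p = 4.5e-13, edgeR).

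St18 made its main rise late, from GCimm1 on. It stood at 4.58, 16.4 and 15.4 CPM in GCimm1 of w1, w2 and w4 and at 87.8, 63.4 and 73.3 CPM in GCimm2 of w2, w4 and w8. The log2 change was 2.46 (SE 0.24, adjusted p = 1.4e-11, edgeR), the 1 member called at this step, where 9.43% of all genes were called, 6.52% higher and 2.91% lower. It rose again to 208 CPM in w4 and 229 CPM in w8 in GCyoung (log2 change 1.68, SE 0.23, adjusted p = 1.1e-07), again the 1 member called, where 18.9% of all genes were, 9.27% higher and 9.62% lower (1253 and 1300 genes, against 682 and 1152 with DESeq2). The ratio of GCyoung to GCimm2 was 3.28 in w4 (2.78 to 3.89) and 3.13 in w8 (1.73 to 6.33).

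In GCmat1, St18 was at 231, 294 and 255 CPM in w1, w4 and w8 and in GCmat2 at 250 CPM in w4 and 313 CPM in w8, and GCmat2, GCmat1 and GCyoung, the 3 highest clusters of the trajectory, were not called different from their neighbour among these 3. From GCyoung to GCmat1, 0 members were called by edgeR or DESeq2, where edgeR called 3.85% of all genes, 1.6% higher and 2.25% lower (216 and 304 genes, against 56 and 173 with DESeq2). At an unadjusted p under 0.05, edgeR listed 3 members (Prox1, Myt1 and Neurog2) and DESeq2 listed 1 (Prox1).

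St18 also had a small earlier rise. In NPC it stood at 26.1, 15.4 and 13.1 CPM in w1, w2 and w4, from 13, 5 and 1 UMIs, against 4.35, 2.35, 8.83 and 12.7 CPM in RGL. The log2 change was 1.80 (SE 0.57, adjusted p = 0.012, edgeR), and without w1 it was 1.06 with an adjusted p of 0.43. In NB1 it was at 10.4, 6.85 and 15.7 CPM, a log2 change from NPC of -0.90 (SE 0.50, adjusted p = 0.18). From NB1 to NB2 the log2 change was -1.80 (SE 0.55, adjusted p = 0.066), on 9 UMIs in NB2, and it was called with no filter on low counts (-1.84, adjusted p = 0.013), in sums of at least 20 nuclei and without w2 or w4.

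Of the 101 St18 UMIs in NB1, 30 lay in 16 of its 2578 nuclei. These 16 nuclei, 11 of w1 and 5 of w2, had a pseudo-time of 7.70 to 7.95 and were picked out after their values were seen; 3 NB1 nuclei lay below them and 5 between 8 and 9. St18 stood at 403 CPM in them, with a UMI in 8 of the 16, and at 6.57 CPM in the 2554 NB1 nuclei at a pseudo-time of 9 or more. Eomes, Neurog2, Top2a and Mki67 had 0 UMIs in them, Prox1 was at 215 CPM and Myt1 at 523 CPM. Of 5 interneuron markers, Gad1 was at 966 CPM, Gad2 at 1194 CPM, Slc32a1 at 80.5 CPM and Adarb2 at 3435 CPM, and Lhx6 had 0 UMIs. Their part in the result was not tested. Leaving out the NB1 nuclei below a pseudo-time of 9 drops these 16, the 3 below them and the 5 between 8 and 9. Since the 16 were picked with their values seen, this had to lower St18 in NB1, and the calls it gives are no support for a change. Without these nuclei, St18 was called lower in NB1 than in NPC (log2 change -1.38, adjusted p = 0.039, edgeR) and higher in GCimm1 than in NB1 (1.11, adjusted p = 0.011, against 0.66 and 0.16 with them).

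The authors' pseudo-time, given for 13635 nuclei, placed the members in an order of onset. Onset is the point where the level in bins of 1 unit first reached 50% of the rise to its highest bin, and bins with fewer than 20 nuclei were left out. It came at 4.16 for Insm1, 5.55 for Myt1, 7.64 for Eomes, 7.75 for Neurog2, 10.003 for Myt1l, 11.1 for Neurod2, 11.3 for Prox1 and 21.1 for St18. No nucleus had a pseudo-time between 4 and 7, and the onsets of Insm1 and Myt1 were interpolated across that gap from RGL to NPC, so they fix only that both rose by the bin at 7.5. The bin at 7.5 also holds the 16 NB1 nuclei above, without an Eomes UMI, and without the NB1 nuclei below 9 the onset was 7.50 for Eomes and 6.01 for Myt1, with the order of all 28 pairs kept. Neurod2 came before Prox1 in w1 and after it in w2 and w4.

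Per library, the onset of Eomes was 7.68 in w1 and 7.53 in w2, of Myt1 5.45 and 5.16, of Insm1 2.74 and 4.47, on either side of the pooled value, and of Myt1l 9.93 in w1, 9.99 in w2 and 7.64 in w4. In w4, only 11 NPC nuclei lay at a pseudo-time of 7 to 8 and 10 at 8 to 9, where a bin needs 20. The w4 onset of Myt1l may thus be interpolated past the progenitors and does not place its rise among them. Neurod2 began at 11.2, 11.5 and 11.7 and Prox1 at 11.5, 11.2 and 10.9 in w1, w2 and w4. Neurog2 began at 7.96 in w1 but at 2.41 in w2, so its place in the order was not stable between libraries. St18 could be placed in w4 alone, at 25.1.

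**Figure D3:**
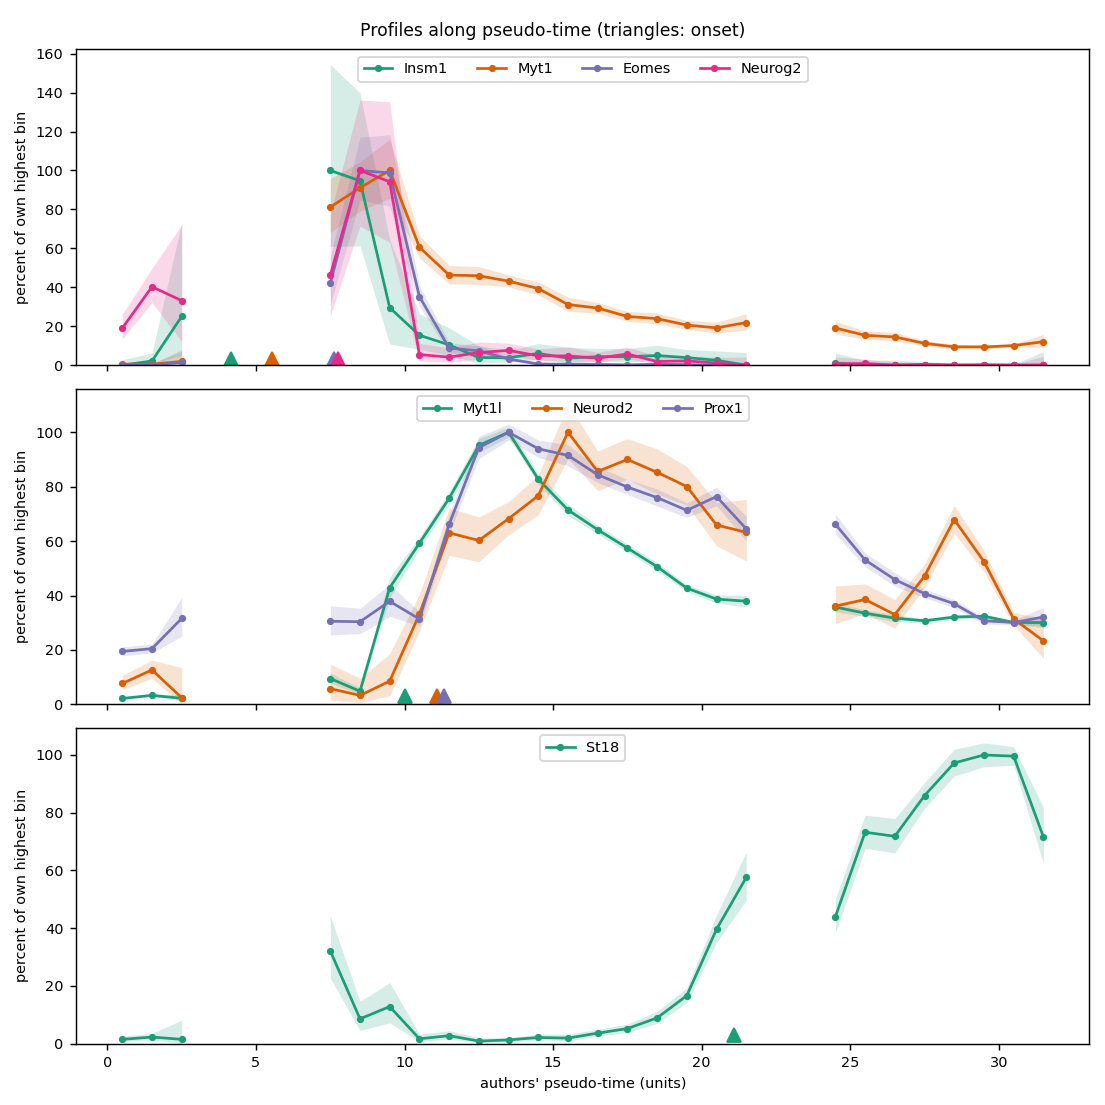
Level of 8 genes in bins of 1 unit along the authors' pseudo-time (horizontal axis), each as percent of its own highest bin (vertical axes). Shading is the exact 95% Poisson interval, triangles mark onsets, and lines break where no bin had 20 nuclei. Insm1, Myt1, Eomes and Neurog2 peak between 7.5 and 9.5, Myt1l, Neurod2 and Prox1 between 13.5 and 15.5, and St18 at 29.5.

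The declines followed in another order. Levels fell through 50% of the drop after the peak at 9.19 for Insm1, 9.998 for Neurog2, 10.3 for Eomes, 10.9 for Myt1, 16.4 for Myt1l, 21.5 for Prox1 and 21.7 for Neurod2. In w4 alone, Prox1 fell at 23.5 and Neurod2 at 19.9, the reverse of the pooled order, so the order of these 2 was not stable. No nucleus had a pseudo-time between 22 and 24. The 23.5 of Prox1 in w4 and the pooled 21.7 of Neurod2 were interpolated across that gap and are not measured positions. Prox1 fell at 17.7 in w2, which is not a like measure. Each library's drop was taken to its own lowest later bin, and w2 had fewer than 10 nuclei in GCyoung and in GCmat1. Neurod2 had a second, lower high at 28.5, with 110 CPM against 53.5 CPM at 26.5. These declines were taken on CPM, without TMM factors. The edgeR fit, with them, did not call Neurod2 from GCimm2 to GCyoung (log2 change -0.33, SE 0.23, adjusted p = 0.35). After thinning to 2000 UMIs, Neurod2 was called there (-0.74, adjusted p = 0.014, edgeR). In the bin at 7.5, St18 stood at 86.8 CPM, with 30 of its 37 UMIs in the 16 NB1 nuclei above, and at 23.1 CPM in the next. Of the 107 Myt1l UMIs in the bin at 7.5, 98 lay in the same 16 nuclei.

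Of 211 NPC nuclei, 86 had a UMI of Eomes, 39 of Neurog2, 31 of Insm1, 136 of Prox1 and 138 of Myt1. Eomes and Neurog2 were found together in 22 nuclei (10.4%, interval 6.65 to 15.4%), where the product of their shares is 7.53%. Insm1 and Prox1 were found together in 14 nuclei (6.64%, interval 3.67 to 10.9%), where the product is 9.47%. These are descriptions of sparse counts and no test was run.

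NPC nuclei were also divided by cycle markers: 87 had a UMI of Top2a or Mki67 and 124 had none, with median depths of 4624 and 3817 UMIs. Insm1 stood at 57.5 CPM in the first (95% interval 36.8 to 85.5) and at 36.3 CPM in the second (21.5 to 57.4). Eomes stood at 192 CPM (152 to 238) and 250.1 CPM (208 to 298), and Neurog2 at 50.3 CPM (31.1 to 76.9) and 72.6 CPM (50.8 to 101). All 3 pairs of intervals overlapped, and so did those of the other members' levels. The share of nuclei with a UMI of Myt1l was 29.9% (20.5 to 40.6%) in the first and 12.9% (7.56 to 20.1%) in the second, intervals over pooled nuclei that did not overlap, while its level was 113 CPM (82.7 to 150) and 88.7 CPM (64.5 to 119). Within w1, w2 and w4 taken alone, the intervals of the Myt1l share did overlap. In w1 they were 21.9 to 51.2% and 8.49 to 27.5%, and in w2 12.3 to 45.9% and 1.40 to 18.3%. Depth differed between these sets, and its part in the shares was not tested.

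The Myt1 family and Prox1 were also found in the oligodendrocyte lineage, where edgeR was fitted to all 13 clusters (38 sums, 11548 genes). In OPC, Myt1 stood at 445, 486, 263 and 379 CPM in w1, w2, w4 and w8, and Myt1l at 299, 263, 344 and 362 CPM. From NPC to OPC, 6 members were called, 2 higher and 4 lower, where 28.4% of all genes were called, 14.4% higher and 14.0% lower (1663 and 1618 genes, against 1849 and 1319 with RLE factors and 1796 and 1174 with DESeq2), and the median gene moved by -0.12. These were Myt1 (log2 difference 0.82, SE 0.19, adjusted p = 0.00068) and Myt1l (2.33, SE 0.31, adjusted p = 1.1e-08) higher, and Prox1 (-2.60, SE 0.30, adjusted p = 2.1e-10), Eomes, Insm1 and Neurog2 lower. In CPM, which take no TMM factors, Myt1 stood closer, at 397 over all OPC and 333 over all NPC nuclei. Eomes and Insm1 had 1 UMI each in OPC, and Neurog2 had 0, which makes it at least 14.0-fold lower.

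From RGL to OPC, 4 members were called, where 29.7% of all genes were called, 14.5% higher and 15.2% lower (1673 and 1760 genes, against 1897 and 1273 with DESeq2), and the median gene moved by -0.14. Myt1 was higher by 7.58 (SE 0.28, adjusted p = 1.3e-28, edgeR) and Myt1l by 2.33 (SE 0.24, adjusted p = 6.1e-12), Prox1 was lower (-2.30, SE 0.28, adjusted p = 5.8e-10), and Neurog2 was at least 4.72-fold lower.

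St18 was at 3 UMIs in all OPC nuclei and at 3713, 4429 and 5228 CPM in oligodendrocytes of w2, w4 and w8, where all 45 nuclei had a UMI. The ratio to OPC was 763 in w2 (95% interval 135 to 30298), 707 in w4 (126 to 28024) and 939 in w8 (167 to 37175), and the difference was called (adjusted p = 1.4e-28, edgeR). Prox1 was also higher in oligodendrocytes, at 225, 131 and 225 CPM against 61.4, 38.9, 37.6 and 16.7 CPM in OPC of w1, w2, w4 and w8 (2.12, SE 0.40, adjusted p = 2.9e-05). Myt1l was lower (-3.59, SE 0.54, adjusted p = 2.9e-07), and Myt1, at 0 UMIs in oligodendrocytes, was at least 29.1-fold lower. These were the 4 members called, where 20.0% of all genes were called, 6.7% higher and 13.2% lower, and the median gene moved by -0.43. Relative to it, Prox1 was higher by 2.55 and Myt1l lower by a log2 difference of -3.16.

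Against NB1, 5 members were called in oligodendrocytes, 1 higher and 4 lower, where 26.5% of all genes were called, 9.13% higher and 17.3% lower, and the median gene moved by -0.70. The balance of 1054 genes higher and 2003 lower was 1297 and 1330 with RLE factors and turned to 1491 and 1147 with DESeq2. St18 was higher by 8.57 (SE 0.28, adjusted p = 4.4e-32, edgeR), and Prox1 (-2.18), Myt1l (-6.06), Myt1 (at least 14.6-fold) and Neurod2, which had 1 UMI in oligodendrocytes, were lower. Relative to the median gene, the log2 difference was 9.27 for St18, -1.48 for Prox1 and -5.36 for Myt1l.

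**Figure D4:**
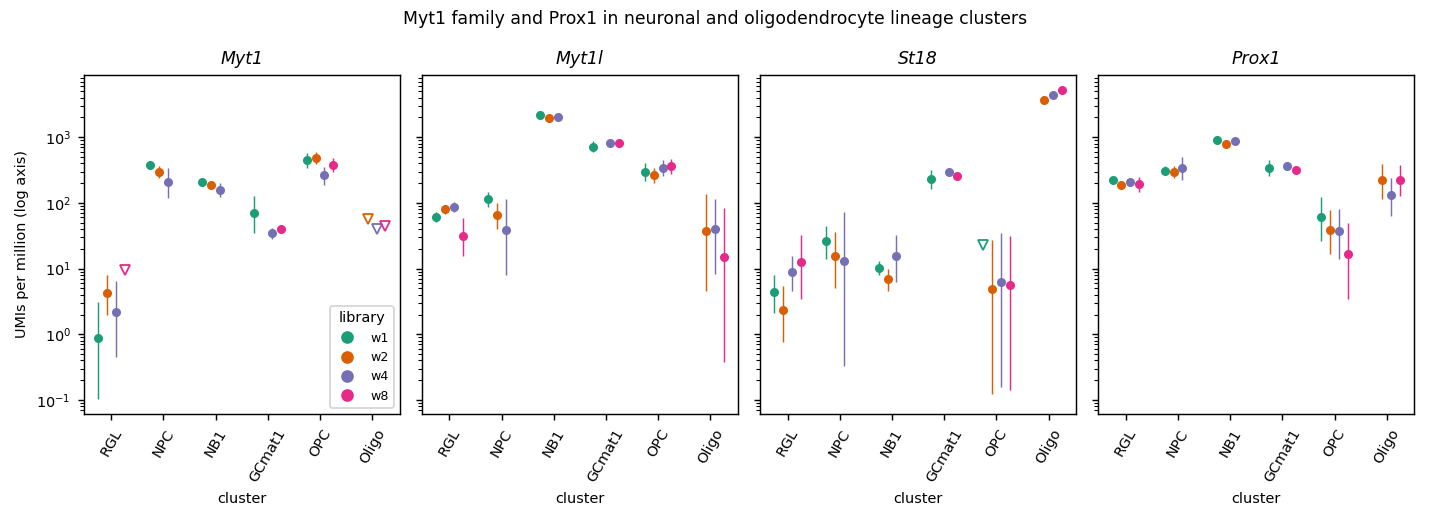
Levels of Myt1, Myt1l, St18 and Prox1 (vertical axis, CPM, log scale) in clusters of the neuronal and the oligodendrocyte lineage (horizontal axes). Filled points are libraries with exact 95% Poisson intervals and open triangles mark the limit of 3 counts where a library had 0 UMIs. Myt1 and Myt1l are high in OPC and low or at 0 in oligodendrocytes, and St18 is at or under 6.26 in OPC and at 3713 or more in oligodendrocytes.

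Partners and inhibitors of these factors were followed in the same fit at the 2 steps on either side of NPC. Of 3 E proteins (Tcf3, Tcf4, Tcf12), the dimer partners of bHLH factors, all were tested and 0 were called at either step, with median log2 changes of 0.35 and -0.06, against -0.05 and 0.06 over all genes. Of 7 bHLH inhibitors of the Hes, Hey and Id families, 4 fell from RGL to NPC, Id4 (-4.24), Hes1 (-3.53), Hes5 (-2.63) and Id3 (-2.09), and 0 rose (median -2.09). From NPC to NB1, 2 fell, Hes5 (-2.85) and Id1 (-2.47), and Id2 rose (2.03), with a median of -1.11.

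Among 11 other neural bHLH genes, 7 passed the filter on low counts. Neurod4, known from neuronal progenitors, rose from RGL to NPC (8.73, SE 1.03, adjusted p = 1.9e-09, edgeR) and fell to NB1 (-2.79), as the 1 called at the first step. At the second, 3 rose, Nhlh2 (4.11), Bhlhe22 (3.26) and Neurod6 (1.83), and 2 fell, with a median of -0.16.

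Of 12 corepressor genes known to work with Insm1 and the Myt1 family or with Rest, all tested, 5 rose from RGL to NPC and 1 fell. Rcor2 rose by 4.16 (SE 0.31, adjusted p = 3.7e-16, edgeR), Kdm1a, a histone demethylase, by 1.20, and Hdac2 by 0.76, and Rest, the repressor of neuronal genes, fell by 2.08. From NPC to NB1, 0 rose and 3 fell, Hmg20b (-2.03), Hdac1 (-1.02) and Sin3a (-0.64).

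Of 6 neighbours of Eomes in the cortical progenitor cascade, 4 were tested. Scrt2 rose by 5.65 (SE 0.51, adjusted p = 4.8e-13, edgeR) and Tbr1 by 2.38 from RGL to NPC. From NPC to NB1, Tbr1 (2.46) and Scrt1 (2.24) rose, and Pax6 fell by 2.32. Of 11 dentate and granule cell factors, 4 rose and 2 fell at the first step, with Klf9 (-2.31) and Lef1 (-1.34) lower and Nfix (1.00) and Nfib (0.98) higher. At the second step 1 rose, Bcl11b (2.55), and 1 fell, Lef1 (-2.13). These counts stand beside the backgrounds of 29.5% and 29.3% of genes called at the same steps.

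The genes whose log2(CPM + 1) was most like each member's across the 29 sums were given by Pearson's r as a description, since clusters of 1 library share its depth. For Eomes they were Fam159b (r = 0.904), C330027C09Rik (0.887) and 1190002F15Rik (0.885), for Insm1 they included Arhgap11a (0.890) and Knstrn (0.888), and for Neurog2 Gm29266 (0.947), Prelid2 (0.946) and Stk11 (0.929). For Prox1 they were Atp9a (0.958), Syt14 (0.956) and Crmp1 (0.954), and for Neurod2 Ablim3 (0.905), Rbfox1 (0.895) and Porcn (0.893). For Myt1 they were Lrrc8b (0.966), Ephb2 (0.962) and Clvs1 (0.960), for Myt1l Msra (0.966), Celf4 (0.960) and Akap6 (0.957), and for St18 2010300C02Rik (0.946), Rimbp2 (0.944) and Cacnb2 (0.929).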

How the data were processed

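Nuclei of 4 libraries were analysed. The authors aligned reads with STARsolo 2.7.4a to GRCm38, left out reads that map to several places, and deposited whole UMI counts over exons and introns. They removed doublets with scDblFinder before clustering. The second deposited table holds log2 expression (counts over scran size factors, pseudo-count 1) with each nucleus's library, cluster and pseudo-time; its log2 values entered only 1 alternative for onsets. The annotation release behind the counts is not given in the sources used here. Gene positions are from GENCODE M21.

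For each library, the UMI counts of every cluster with at least 10 nuclei were added up and fitted with edgeR 4.0.16 (filterByExpr, TMM, glmQLFit, glmQLFTest; 16 residual degrees of freedom along the trajectory, 22 over all clusters) in R 4.3.3 with limma 3.58.1. DESeq2 1.42.0 was an alternative. Each sum belongs to a pool of mice, so p-values measure the spread between sums and not between animals. Intervals on levels are exact Poisson, on shares Clopper-Pearson, both at 95%; where a count was 0, 3 counts set the upper limit. Nuclei were thinned to 2000 UMIs to compare shares across depths, and 141 shallower nuclei were left out. Levels and figures came from numpy 2.4.6, pandas 2.3.3, scipy 1.17.1 and matplotlib 3.10.9 under Python 3.11.15, and the tests were checked on simulated data.

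The members and the lists of related genes were chosen with earlier results of these data known. Named genes are the 9 members, genes of those lists called at RGL to NPC or NPC to NB1 with at least 50 UMIs (at most 4 per list by size of change), and the 3 genes most like each member. A few items that this rule names are not reported here. Alternatives fixed with the design were RLE factors, DESeq2, no filter, no library term, sums of at least 20 nuclei, thinning, no fold limit, each library left out, and other settings for onsets. Leaving out NB1 nuclei below a pseudo-time of 9 was chosen after seeing the data. The order of onsets was planned over 36 pairs of members and made over 28, since Neurod1 had no count.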

Additional observations from a re-analysis of the deposited data

Results flagged for a closer look

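Eomes in RGL stood apart in 1 library, with 2.35 CPM in w2, from 5 UMIs, and 0 in the other 3. In OPC, single UMIs set 1 library apart from 3 at 0 for Eomes in w1 (7.67 CPM) and for Insm1 in w2 (4.86 CPM). Of 15 groups of 4 libraries that could be tested these 3 stood out, where chance sets apart about 1 group in 20, and 4 values with 3 at 0 always do so.

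The barcodes that the authors' table gives no cluster, 2679 over all libraries and 1628 of them in w4, enter no comparison. They include doublets, low-quality nuclei and nuclei of w4 that the authors set aside. These barcodes had Eomes at 4.03 CPM, Neurog2 at 2.55, Insm1 at 1.23, Neurod2 at 113, Prox1 at 420, Myt1 at 51.0, Myt1l at 889 and St18 at 276 CPM. These values are mostly those of w4, and libraries differed: Eomes stood at 25.7 CPM in w1, at 10.8 in w2, at 0.317 in w4 and at 0 in w8, and St18 at 182, 155, 259 and 605 CPM.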

How the results depend on the processing

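Of 42 called changes of members, 34 were called under every alternative that could give a value, 8 were lost under at least 1 and 0 changed direction. By setting, of 42, 6 were lost with DESeq2, 7 without w1, 4 without w2 and 1 without w4, and 0 with RLE factors, no filter, without w8 or without the NB1 nuclei below a pseudo-time of 9. The comparisons with OPC and Oligo were not run in 3 settings: of the changes run, 2 of 23 were lost without the library term, 0 of 23 in sums of at least 20 nuclei and 2 of 21 after thinning to 2000 UMIs. The count of members called from astrocytes to RGL (3) was 1 with DESeq2 and 1 to 3 with each library left out. From RGL to NPC (6) it was 3 to 6 with each library left out, from NB1 to NB2 (2) it was 0 with DESeq2, 1 without the library term and 0 to 3 with each library left out, and from GCimm2 to GCyoung (1) it was 3 with RLE factors, 2 with DESeq2, 2 without the library term, 3 after thinning and 2 without the early NB1 nuclei, by Prox1, Insm1 or Neurod2 beside St18. The count over all genes moved by over 1.5 times in each comparison along the trajectory: from astrocytes to RGL from 1295 to 813 without w1 and 818 without w2, from RGL to NPC from 3992 to 2597 after thinning, from NPC to NB1 from 3964 to 2550 without w1, from NB1 to NB2 from 397 to 194 with DESeq2, 189 without the library term, 102 without w1 and 248 without w2, from NB1 to GCimm1 from 1691 to 780 without w2, from GCimm1 to GCimm2 from 1274 to 813 with DESeq2 and 410 without w2, from GCimm2 to GCyoung from 2553 to 1646 after thinning and 487 without w4, from GCyoung to GCmat1 from 520 to 229 with DESeq2, 288 after thinning, 216 without w4 and 219 without w8, and from GCmat1 to GCmat2 from 986 to 503 after thinning, 567 without w4 and 412 without w8; in the comparisons with OPC and Oligo it did not. For St18, the change from NB1 to GCimm1 (0.66, not called) was -0.25 without w2 (not called) and 1.18 without w1 (called, adjusted p = 0.018, edgeR). In all these the cause was not tested, except that leaving out a library leaves fewer sums. Thinning left 9201 genes to test along the trajectory, against 13513 in the main fit, so its counts are out of fewer genes. Of 28 pairs of onsets, 89.3% kept their order at 25% of the rise, 96.4% at 75%, 96.4% in bins of 0.5 units, 96.4% by thinned shares and 92.9% to 100% with each library left out. Thinned to 2000 UMIs, the share of nuclei with a UMI was 27.2% for Eomes, 11.2% for Neurog2 and 6.80% for Insm1 in NPC, 21.8% for Neurod2 and 74.0% for Prox1 in GCimm2, 50.4% for Myt1 in OPC and 99.0% for Myt1l in NB2. No paired analysis was possible because each week is 1 pool and the labels give no number that pairs samples across weeks; the library term stands for what clusters of 1 library share. Depth limits Insm1 and Neurog2, with 144 and 323 UMIs in all nuclei, and clusters with few nuclei: 45 in Oligo, 67 in Astro, 131 in OPC, 211 in NPC and, within w1, 17 in GCmat1.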

Other observations

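Within GCmat1, levels of Neurod2, St18 and Prox1 differed between nuclei without and with a pseudo-time. The paper left GCmat1 nuclei with a strong signal of ventral genes out of its pseudo-time. Nuclei without a pseudo-time may thus have been picked by their expression and are not read as a random part of the cluster. The paper's count of the nuclei left out is not 220, and whether these 220 are among them was not tested. The 220 GCmat1 nuclei without a pseudo-time had Neurod2 at 33.6 CPM (95% interval 26.7 to 41.7) and St18 at 181 CPM (164 to 198), against 69.5 CPM (66.3 to 72.7) and 267 CPM (261 to 274) in the 3136 with one. Prox1 stood at 386 CPM (361 to 411) against 315 CPM (308 to 321). Within w8, which holds 216 of the 220, the values were 33.4 against 62.2 CPM for Neurod2, 181 against 263 CPM for St18 and 386 against 306 CPM for Prox1. The median depth was 10885 UMIs in the nuclei without a pseudo-time and 7974.5 in those with one. The parts of depth and of the ventral signal in these differences were not tested.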
